A study of Homo sapiens with 24 samples.

Results

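The genes described here are 10 fast-responding regulators: the FOS family (FOS, FOSB, FOSL1, FOSL2) and the JUN family (JUN, JUNB, JUND) that make up the transcription factor AP-1, together with EGR1, IER3 and MYC. They were taken by gene symbol, as 10 of the 48162 genes in the deposited tables, and each symbol matched 1 gene. Levels were measured by RNA-seq in hTERT-HPNE (HPNE), a pancreas cell line kept dividing by a telomerase transgene, and in HPDE-H6c7 (HPDE), an immortalised duct epithelial line. Cells of each line, in keratinocyte medium without serum, were exposed for 24 h to fresh serum-free medium (untreated), to the medium remaining after vesicle isolation (residual medium, the study's negative control), or to 1e10 extracellular vesicles (EV) per well shed by PANC-1 cells (pancreatic cancer) or by PPCL-68 cells, whose origin the labels do not give. Each of the 8 groups had 3 libraries, called biological triplicates by the submitters, with no statement of whether replicates came from separate passages or days. Each line is a single model, and the p-values measure the spread between these libraries only.

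AP-1 is a dimer: a JUN family protein pairs with a FOS family protein or with another JUN, and the pair binds a short DNA element in genes for proliferation, migration, matrix degradation and inflammation. Most of these genes belong to the immediate-early class, which growth factors and stress switch on within minutes through MAP kinases, before any new protein is made, and whose RNA is short-lived. FOSL1 and FOSL2 respond later and last longer than FOS and FOSB, and JUND is the member that resting cells keep. EGR1 is a zinc-finger factor switched on by serum response factor, IER3 is a stress-inducible regulator of cell survival and of NF-kappaB and ERK signalling, and MYC is the proliferation factor that pairs with MAX. A reading at 24 h is therefore of the level that persisted, and the first minutes and hours of a response were not sampled.

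Proximal promoters were searched for motifs of these factors in RefSeq sequences (GRCh38.p14), which were found for 7 of the 10 genes. FOSL1, IER3 and MYC had no entry. The 3 promoters that held a match, of EGR1, FOSL2 and JUND, are shown so that the elements can be read in place. Each is shown on the gene's strand, 5' to 3', from 250 bases before to 30 bases after the start site, with matched motifs in capitals. EGR1 lies at chr5:138465229-138465508 (plus strand), FOSL2 at chr2:28392608-28392887 (plus strand) and JUND at chr19:18281593-18281872 (minus strand).
EGR1: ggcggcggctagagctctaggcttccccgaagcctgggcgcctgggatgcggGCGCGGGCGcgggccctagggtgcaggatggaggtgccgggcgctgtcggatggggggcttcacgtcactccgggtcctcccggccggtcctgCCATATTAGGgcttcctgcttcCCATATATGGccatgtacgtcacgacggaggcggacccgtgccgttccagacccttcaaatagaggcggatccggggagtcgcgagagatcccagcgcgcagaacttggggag
FOSL2: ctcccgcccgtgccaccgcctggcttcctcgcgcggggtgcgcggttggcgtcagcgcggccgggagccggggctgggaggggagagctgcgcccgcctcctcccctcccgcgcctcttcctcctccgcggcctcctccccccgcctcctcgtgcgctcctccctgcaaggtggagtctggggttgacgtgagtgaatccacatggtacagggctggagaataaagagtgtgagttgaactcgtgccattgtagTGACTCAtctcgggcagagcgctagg
JUND: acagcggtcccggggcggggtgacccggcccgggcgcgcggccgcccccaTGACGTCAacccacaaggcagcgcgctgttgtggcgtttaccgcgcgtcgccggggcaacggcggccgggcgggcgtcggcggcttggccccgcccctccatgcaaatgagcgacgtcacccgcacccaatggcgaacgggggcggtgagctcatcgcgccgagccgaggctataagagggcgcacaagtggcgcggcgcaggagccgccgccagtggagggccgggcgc
The capitals in EGR1 mark 1 match to the EGR1 element, starting 198 bases before the start site, and 2 serum response elements starting 105 and 83 bases before it. In FOSL2 they mark the AP-1 element, 5 bases into the transcript, and in JUND the cAMP response element, 200 bases before the start. The searches covered 300 bases and both strands, with TGACTCA for the AP-1 element, TGACGTCA for the cAMP response element, GCGNGGGCG for the EGR1 element, CACGTG for the E-box of MYC, TGATGCAA for the ATF4-CEBP element, and the serum response element by its usual consensus. Among 35116 promoters of the same length, 4.95% held TGACTCA, 1.85% TGACGTCA, 9.43% GCGNGGGCG, 1.29% a serum response element, 7.26% CACGTG and 0.866% TGATGCAA. The promoters of FOS, FOSB, JUN and JUNB held no match to these letters within the 300 bases searched. Elements further upstream, or spelled differently, were not sought. These matches describe letters, and binding was not measured.

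Values are FPKM, reads per gene scaled to its length and to the library's total, so levels can be set beside each other between genes. Between 29874928 and 46490312 reads were assigned to genes per HPNE library and between 29209142 and 42206773 per HPDE library. HPDE libraries carried duct markers (KRT19 from 317 to 1140 FPKM, EPCAM from 148 to 192). HPNE libraries did not: KRT19 was at most 0.905 FPKM and EPCAM at most 0.162, while VIM (149 to 539) and COL1A1 (1411 to 4337) were abundant and TERT stood at 114 to 443. PTPRC, a leukocyte marker, was at most 0.0308 FPKM, and INS and PRSS1, of endocrine and acinar pancreas, were at 0 throughout. Some of these markers moved with treatment. The 6 duct markers (KRT19, KRT7, KRT8, KRT18, EPCAM and CDH1) summed in HPDE to 2763 to 3005 FPKM untreated, 3122 to 3498 in residual medium, 1549 to 1811 with PANC-1 and 1431 to 1444 with PPCL-68 vesicles. All 4 keratins had lower means with either vesicle than in either control, KRT19 for example 955, 1048, 426 and 326 FPKM in that order, while CDH1 means were 52.0, 54.2, 48.4 and 47.9 and EPCAM means 149.8, 187, 171 and 181. The 4 mesenchymal markers (VIM, CDH2, FN1 and COL1A1) summed in HPNE to 10252 to 10479, 8191 to 10583, 9297 to 10871 and 7626 to 9792 FPKM. Mean VIM there was 287, 447, 266 and 174, CDH2 8.78, 27.5, 19.9 and 48.1, FN1 5984, 6138, 6991 and 7305, and COL1A1 4115, 2423, 2770 and 1496. Their part in the results was not tested.

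Every HPNE group held a tight pair of libraries and 1 outlying library, whose root mean square distance from the pair was 2.05 to 3.31 times that between the pair, over 11503 genes. In HPDE the same ratio was 1.08 to 1.24. The libraries apart were untreated replicate 3, residual medium replicate 3, PANC-1 EV replicate 1 and PPCL-68 EV replicate 1. The latter 3 deviated from their groups in a shared direction (Pearson r 0.386 to 0.582 across genes) and untreated replicate 3 in the opposite one (r -0.51 to -0.59), and genes are not independent replicates. Among the genes described here EGR1 moved most: it was 1.60 to 1.85 higher on the log2 scale in those 3 libraries than in their partners, and 1.49 lower in untreated replicate 3. JUNB and JUND shifted the same way as EGR1 in all 4 libraries and FOSL1 and FOSL2 the opposite way. MYC shifted by at most 0.34 and IER3 by at most 0.40. What set these libraries apart was not tested. The main HPNE results are given with and without these 4 libraries. Leaving out the library furthest from its group narrows the spread by construction, so the smaller p-values of that choice are not stronger evidence. Sample quality weights count libraries far from their group for less, so calls under them are not separate support.

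**Figure D1:**
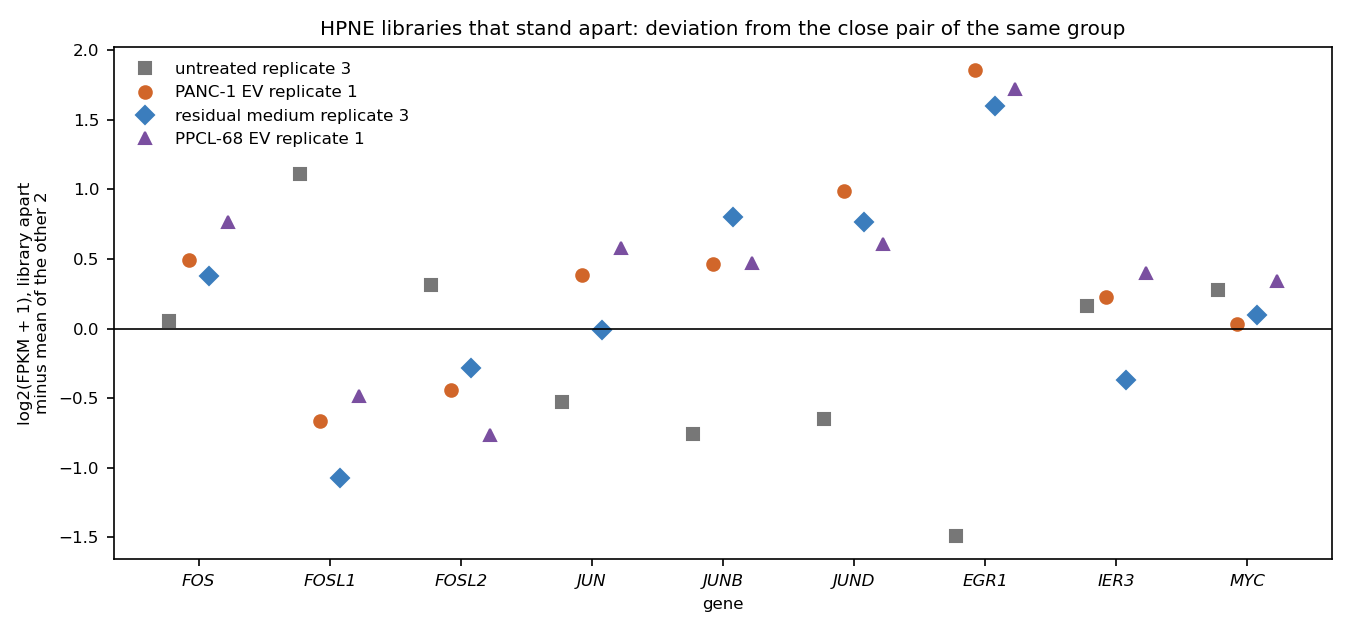
Difference in log2(FPKM + 1) between each of the 4 HPNE libraries that stand apart and the mean of the other 2 of its group, by gene (FOSB not computed, as its mean FPKM in HPNE was under 1). For EGR1, untreated replicate 3 lies at -1.49 and the other 3 libraries between 1.60 and 1.85, while the MYC points stay between 0.03 and 0.34.

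The members spanned a wide range of levels. FOS and FOSB were near the bottom of what was measured, at 0.605 to 6.20 and 0.171 to 2.47 FPKM over all libraries. IER3 reached 500.1 FPKM in HPNE and 790.2 in HPDE. A call is a limma adjusted p under 0.05 on log2(FPKM + 1), adjusted over all genes tested in the fit, which took genes averaging 1 FPKM or more. In HPNE 9 members were tested, FOSB being under that level, and in HPDE all 10. Since FPKM came from whole cultures, a change in each cell's RNA and a change in which cells were present cannot be told apart.

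**Figure D2:**
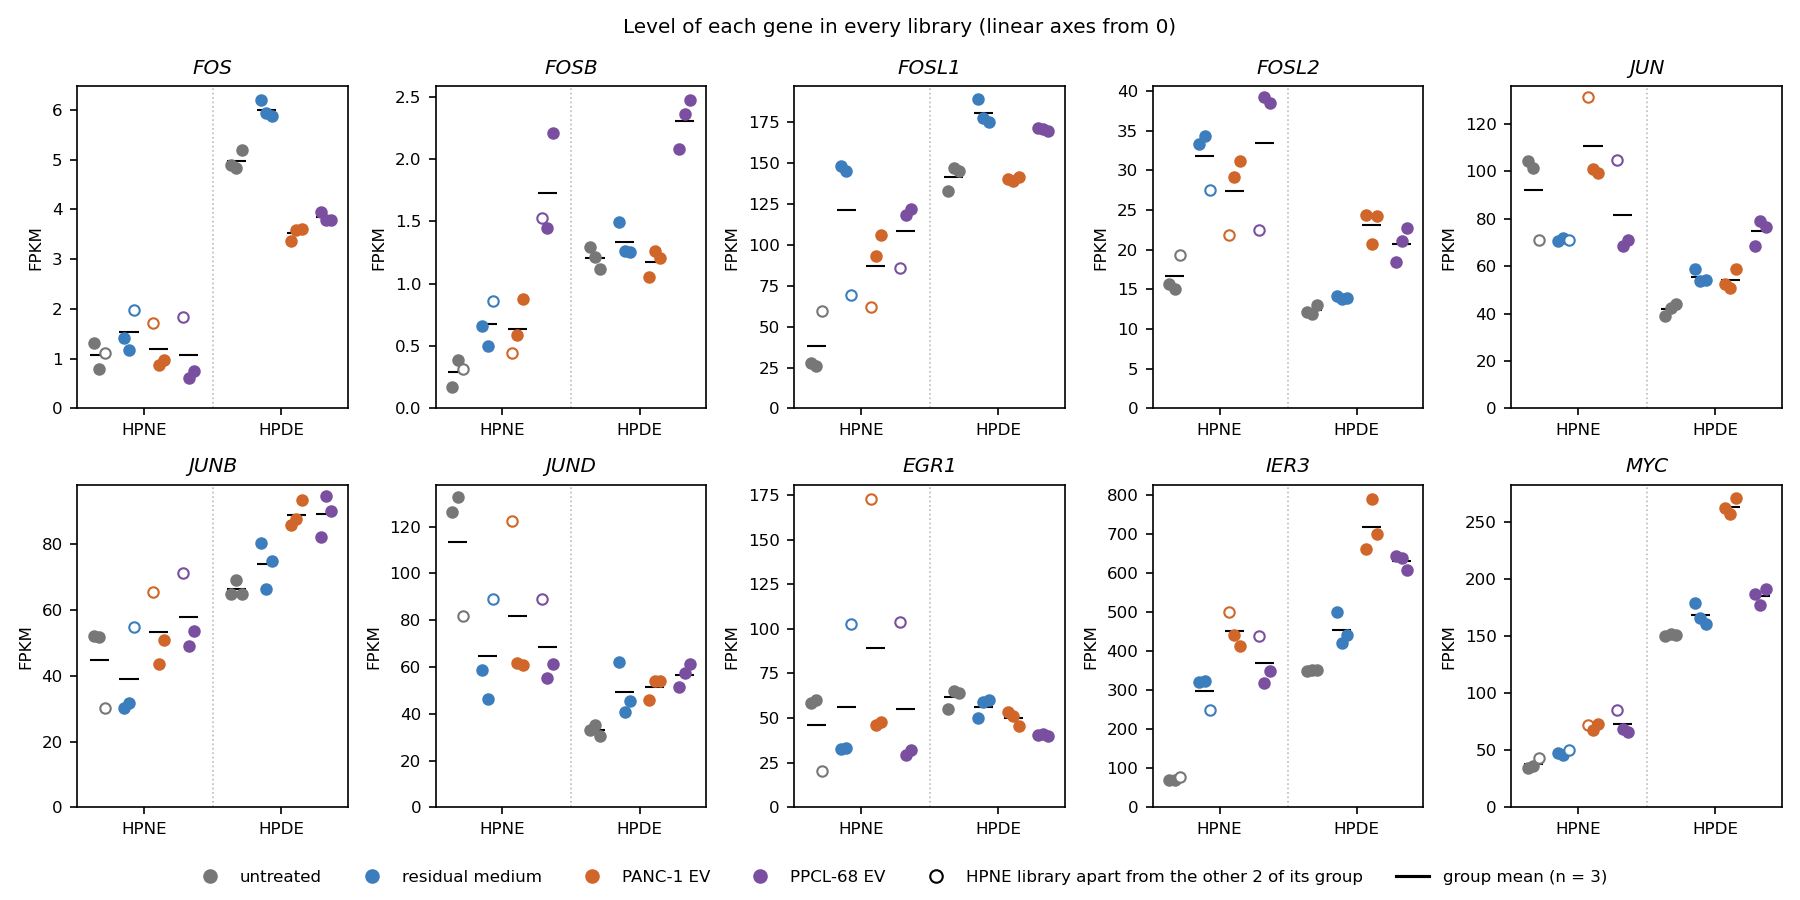
FPKM of each gene (linear axes from 0, scaled per gene) in every library of HPNE and HPDE, coloured by treatment, with the group mean of 3 libraries as a bar and the 4 HPNE libraries apart as open circles. IER3 and MYC rise from untreated to vesicle-treated cells in both lines without overlap, whereas the open circles of EGR1 leave their groups in every HPNE treatment.

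Residual medium alone altered several of these genes. In HPNE it raised FOSL1, FOSL2, IER3 and MYC, 4 of the 9 tested, where 43.9% of all genes tested were called. In HPDE it raised FOS, FOSL1, JUN, JUND, IER3 and MYC, 6 of 10, against 20.0% of all genes. In the main fit no member was called lower in either line. Without the HPNE libraries apart JUN (-0.52), JUNB (-0.72), JUND (-1.30) and EGR1 (-0.82) were called lower in HPNE, where 71.7% of all genes were then called. The same 4 were called lower under sample quality weights, which count those libraries for less. That is not separate support, and the share of all genes called under weights is not given. With a replicate block JUND was called lower as well (adjusted p = 0.049). Against untreated cells, PANC-1 vesicles raised the same 4 genes of HPNE (FOSL1, FOSL2, IER3 and MYC), with 21.1% of all genes called, and PPCL-68 vesicles raised those 4 as well, with 42.5% called. Without the libraries apart EGR1 and JUND were also called lower with each vesicle, and JUN with PPCL-68 vesicles, with 62.7% (PANC-1) and 69.6% (PPCL-68) of all genes called. In HPDE, PANC-1 vesicles raised 6 members and lowered FOS and EGR1 relative to untreated cells (60.6% of all genes called), and PPCL-68 vesicles raised 8 and lowered the same 2 (66.3%). The comparisons with untreated cells share the untreated libraries.

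Residual medium was the study's own control. Against it PANC-1 vesicles raised JUN, IER3 and MYC in HPNE, 3 of 9, with 24.2% of all genes called, and PPCL-68 vesicles raised MYC, 1 of 9, with 39.9% called. In HPDE, PANC-1 vesicles raised FOSL2, JUNB, IER3 and MYC and lowered FOS and FOSL1, 6 of 10 against 63.3% of all genes. PPCL-68 vesicles raised FOSB, FOSL2, JUN, JUNB, IER3 and MYC and lowered FOS and EGR1, 8 of 10 against 67.7%. None of these shares of members lies far above that of all genes, and the counts are not a result about the members. In HPNE the median log2 difference of the members was 0.48 for PANC-1 and 0.10 for PPCL-68 vesicles, and in HPDE 0.01 and 0.24, beside 0.02, 0.0026, -0.04 and -0.03 for all genes. Without the 4 libraries apart, 8 members remained testable in HPNE and 7 (PANC-1, with 59.1% of all genes called) and 4 (PPCL-68, with 65.7%) were called.

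**Figure D3:**
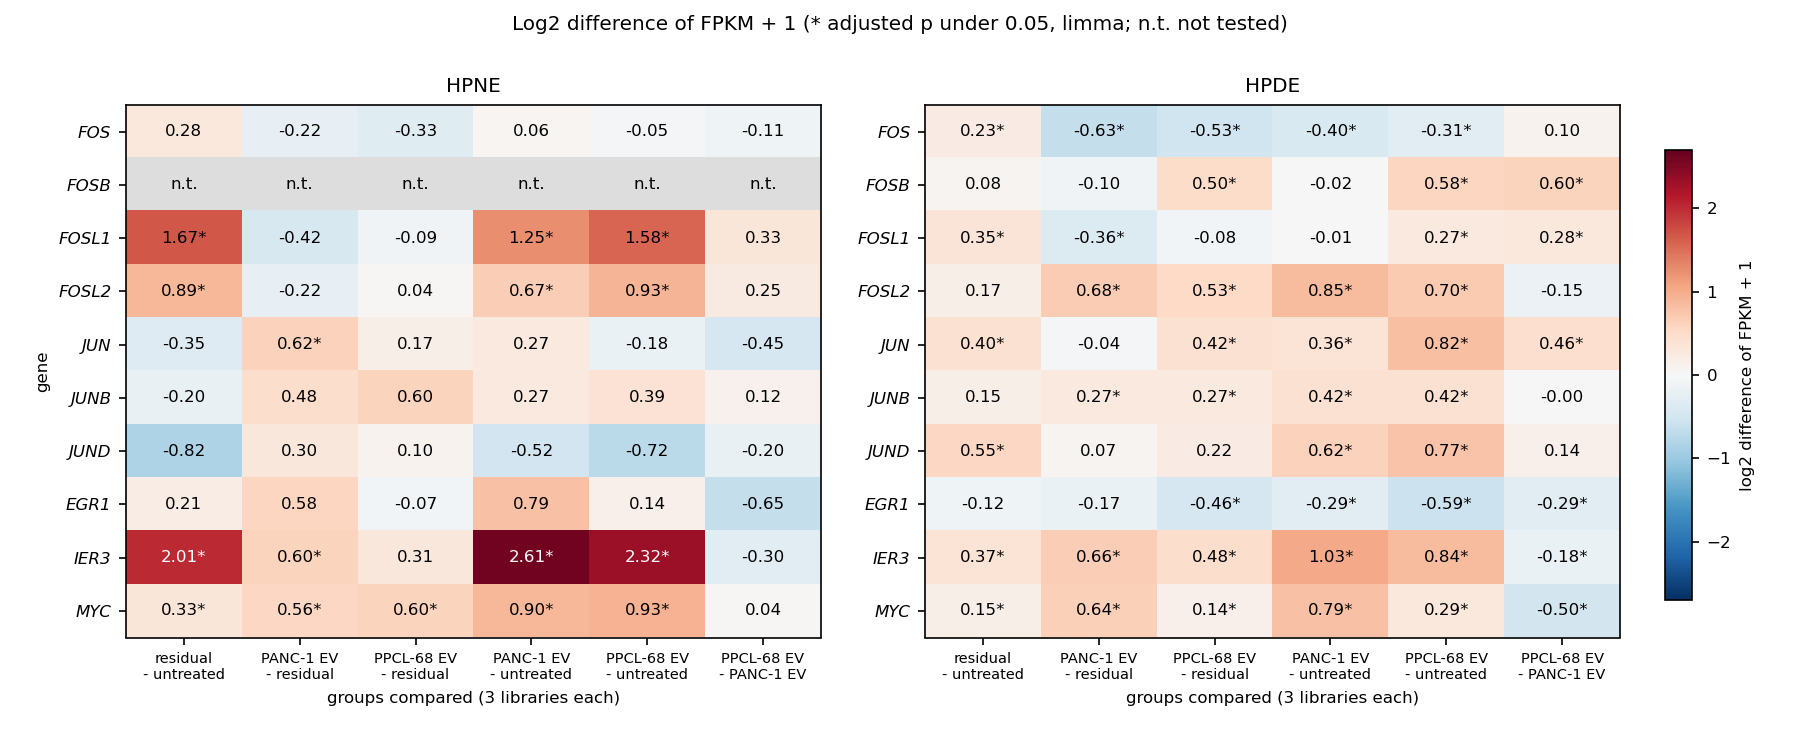
Log2 difference of FPKM + 1 for each gene (rows) in 6 comparisons (columns) within HPNE (left) and HPDE (right), 3 libraries a group, with asterisks for a limma adjusted p under 0.05 and n.t. for FOSB in HPNE, which was not tested. MYC carries an asterisk in 5 of 6 columns for HPNE and in all 6 for HPDE, and FOS is negative and called in the 4 vesicle-against-control columns of HPDE.

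FOSL1 (Fra-1; chr11:65659520-65668044, minus strand, as deposited on hg19) and FOSL2 (Fra-2; chr2:28615315-28640179, plus strand) lack the strong activation domain of FOS and are the FOS family members that persist in migrating and invasive cells. FOSL1 in HPNE stood at 28.0, 26.0 and 59.6 FPKM in untreated replicates 1 to 3, 148, 145 and 69.4 in residual medium, 62.2, 92.9 and 106 with PANC-1 vesicles and 85.5, 118 and 122 with PPCL-68 vesicles. Each treated library lay above each untreated one, and the libraries apart were the lowest of each treated group and the highest untreated one. Residual medium raised FOSL1 by 1.67 (SE 0.36, adjusted p = 0.0043), PANC-1 vesicles by 1.25 (SE 0.36, adjusted p = 0.030) and PPCL-68 vesicles by 1.58 (SE 0.36, adjusted p = 0.0045) over untreated cells, and by 2.40, 1.84 and 2.11 without the libraries apart. Neither vesicle differed detectably from residual medium (-0.42, adjusted p = 0.39, and -0.09, adjusted p = 0.86). Without the libraries apart these differences were -0.56 and -0.28 and passed (adjusted p = 4.7e-05 and 0.0031). The PANC-1 call over untreated cells was lost without untreated replicate 1 or 2 or PANC-1 EV replicate 2 or 3 (adjusted p 0.0958 to 0.123) and with no filter on low values (adjusted p = 0.084).

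In HPDE, FOSL1 was high from the start, at 133, 147 and 145 FPKM untreated. Residual medium brought it to 189, 177 and 175, PANC-1 vesicles left it at 140.0, 139 and 141, and PPCL-68 vesicles at 171, 171 and 169.8. The residual medium group was the highest and did not overlap the others. Residual medium raised it by 0.35 (SE 0.05, adjusted p = 0.00012), PANC-1 vesicles held it 0.36 below residual medium (-0.36, SE 0.05, adjusted p = 9.2e-06), and PPCL-68 vesicles were 0.28 above PANC-1 vesicles (SE 0.05, adjusted p = 0.00016). The response to residual medium was smaller in HPDE than in HPNE by -1.32 (HPDE minus HPNE, SE 0.38, adjusted p = 0.011).

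FOSL2 in HPNE rose from 15.6, 15.1 and 19.3 FPKM untreated to 33.4, 34.3 and 27.6 in residual medium, a difference of 0.89 (SE 0.20, adjusted p = 0.0062). PANC-1 vesicles gave 21.9, 29.1 and 31.1 and PPCL-68 vesicles 22.5, 39.3 and 38.5. Both vesicle groups overlapped the residual medium group and lay above the untreated one, by 0.67 (adjusted p = 0.037, lost without untreated replicate 1 or 2 or PANC-1 EV replicate 2 or 3, adjusted p 0.117 to 0.144, and with no filter on low values, adjusted p = 0.094) and by 0.93 (adjusted p = 0.0040). Without the libraries apart the differences from untreated cells were 1.09 for residual medium, 0.93 for PANC-1 and 1.29 for PPCL-68 vesicles. Those from residual medium were then -0.16 for PANC-1 (adjusted p = 0.020) and 0.19 for PPCL-68 vesicles (adjusted p = 0.0072), and both were called. HPDE showed a different order. Untreated libraries read 12.2, 11.9 and 13.0, residual medium 14.2, 13.8 and 14.0, PANC-1 vesicles 24.4, 20.7 and 24.3 and PPCL-68 vesicles 18.5, 21.1 and 22.7, so both vesicle groups stood clear of both controls. Vesicles exceeded residual medium by 0.68 (PANC-1, SE 0.07, adjusted p = 1.6e-06) and by 0.53 (PPCL-68, SE 0.07, adjusted p = 1.4e-05), and residual medium was 0.17 above no treatment, which did not pass (adjusted p = 0.12). The difference between lines was 0.90 for PANC-1 vesicles over residual medium (SE 0.23, adjusted p = 0.0085) and -0.72 for residual medium over untreated cells (SE 0.23, adjusted p = 0.018). For PPCL-68 vesicles it was 0.50 and did not pass (adjusted p = 0.12), but without the libraries apart it was 0.34 and passed (adjusted p = 0.012). The 2 other genes that overlap FOSL2 had at most 0.637 FPKM.

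FOS (chr14:75745477-75748933, plus strand), the archetypal immediate-early gene, was low in both lines, at 39 to 151 reads per HPNE library and 248 to 521 per HPDE library. HPDE levels ordered cleanly: 6.20, 5.93 and 5.89 FPKM in residual medium, 4.90, 4.84 and 5.20 untreated, 3.95, 3.78 and 3.79 with PPCL-68 vesicles and 3.37, 3.58 and 3.60 with PANC-1 vesicles, with no overlap between neighbours. FOS rose by 0.23 in residual medium (SE 0.06, adjusted p = 0.011). It was -0.63 against residual medium with PANC-1 vesicles (SE 0.06, adjusted p = 2.5e-07) and -0.53 with PPCL-68 vesicles (SE 0.06, adjusted p = 9.3e-07), and it was below untreated cells too, at -0.40 and -0.31. In HPNE it read 1.32, 0.798 and 1.12 untreated, 1.42, 1.18 and 1.98 in residual medium, 1.71, 0.877 and 0.970 with PANC-1 vesicles and 1.84, 0.605 and 0.747 with PPCL-68 vesicles. All 4 groups overlapped, and with all libraries weighted equally neither an HPNE comparison nor a difference between lines passed. With sample quality weights FOS was called lower with PPCL-68 vesicles than in residual medium in HPNE (-0.44, adjusted p = 0.0089), and the PANC-1 response was lower in HPDE than in HPNE (-0.30, adjusted p = 0.022). Without the libraries apart that difference between lines was -0.38 (adjusted p = 0.016).

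FOSB (chr19:45971253-45978437, plus strand), which with its truncated isoform is known from long-lasting stimulation, was highest with PPCL-68 vesicles in both lines. In HPDE it read 1.29, 1.21 and 1.11 FPKM untreated, 1.50, 1.26 and 1.26 in residual medium, 1.05, 1.27 and 1.21 with PANC-1 vesicles and 2.08, 2.36 and 2.47 with PPCL-68 vesicles. The PPCL-68 group alone stood apart, by 0.50 over residual medium (SE 0.08, adjusted p = 9.2e-05) and 0.60 over PANC-1 vesicles (SE 0.08, adjusted p = 3.9e-05). In HPNE the PPCL-68 group was again the highest, at 20 to 305 reads per library: 0.171, 0.389 and 0.312 FPKM untreated, 0.660, 0.504 and 0.862 in residual medium, 0.446, 0.587 and 0.879 with PANC-1 vesicles and 1.52, 1.45 and 2.21 with PPCL-68 vesicles. The PPCL-68 group did not overlap the others. It entered no main test in HPNE. With no filter on low values it was 0.70 above residual medium (SE 0.15, adjusted p = 0.012), 0.73 above PANC-1 vesicles (SE 0.15, adjusted p = 0.048) and 1.07 above untreated cells (SE 0.15, adjusted p = 0.0010). With only the libraries compared, the middle one of these did not pass (adjusted p = 0.058). In that setting FOSB met the filter on low values only through the PPCL-68 group, where it is high. ERCC1 overlaps FOSB on the opposite strand and the library kit kept no strand, so their reads cannot be fully separated. ERCC1 in HPDE stood at 24.1 ± 2.40 FPKM in residual medium and 12.8 ± 0.306 with PPCL-68 vesicles (SD, n = 3). In HPNE its mean was 12.2 FPKM untreated, 19.8 in residual medium, 16.6 with PANC-1 and 16.8 with PPCL-68 vesicles. Its part in the FOSB values was not tested.

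By summed FPKM, FOSL1 and FOSL2 made up nearly the whole FOS family RNA in both lines. FOSL1 held 65.9% ± 7.13 of it in untreated HPNE and 76.8% ± 6.29, 74.5% ± 2.15 and 75.2% ± 1.39 in residual medium, PANC-1 and PPCL-68 vesicles (SD, n = 3). The family sum there was 55.9 FPKM untreated and 155, 116 and 145 in the treated groups. In HPDE, FOSL1 held 88.4% ± 0.634 untreated, 89.4% ± 0.194 in residual medium, 83.5% ± 0.880 with PANC-1 vesicles and 86.4% ± 1.05 with PPCL-68 vesicles. The FOSL2 share in HPDE was 7.74% ± 0.436 and 6.94% ± 0.197 in the controls and 13.8% ± 1.01 and 10.5% ± 1.02 with PANC-1 and PPCL-68 vesicles. FOS and FOSB together are the remainder. The shares sum to a whole, so a rise of one gene lowers the share of the rest.

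**Figure D4:**
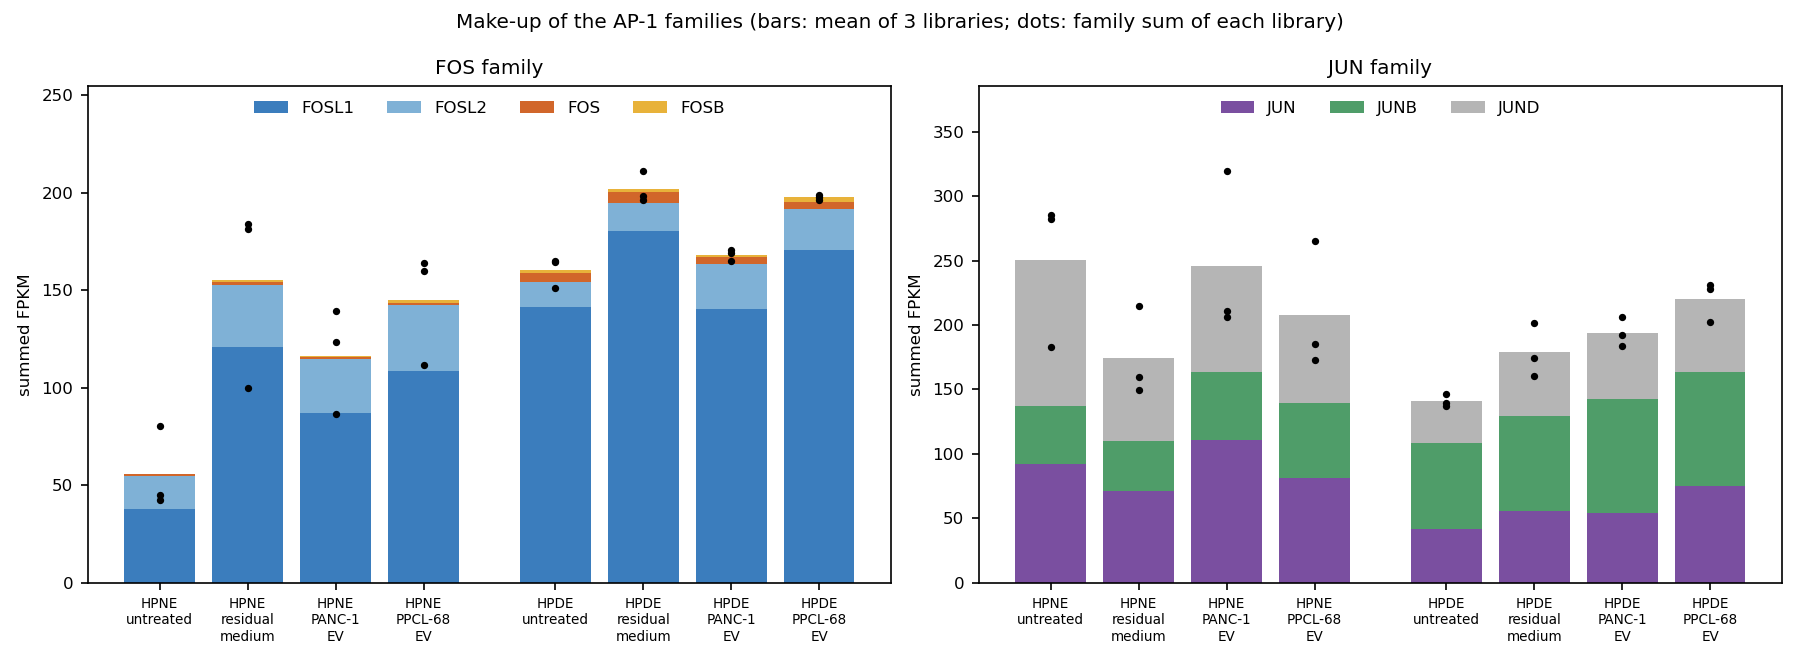
Summed FPKM of the FOS family (left) and the JUN family (right) in the 8 groups, as stacked bars of the group means of 3 libraries, with black dots for the family sum of each library. The FOS family bar of HPNE grows from 55.9 untreated to 155 in residual medium, mostly as FOSL1, and the dots show the wide spread of HPNE beside HPDE.

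JUN (c-Jun; chr1:59246465-59249785, minus strand) is the AP-1 partner that JNK phosphorylates, and it promotes proliferation. In HPNE its RNA stood at 104, 101 and 71.0 FPKM untreated, 70.4, 72.0 and 70.8 in residual medium, 131, 101 and 99.4 with PANC-1 vesicles and 105, 68.6 and 70.9 with PPCL-68 vesicles. All PANC-1 libraries lay above all residual medium libraries. That difference was 0.62 (SE 0.19, adjusted p = 0.034) and 0.49 without the libraries apart. It was lost when PANC-1 EV replicate 1, 2 or 3 or residual medium replicate 1 or 2 was left out (adjusted p 0.0516 to 0.11) or with no filter on low values (adjusted p = 0.095). JUN in HPDE read 39.0, 42.3 and 44.2 untreated, 58.8, 53.7 and 54.3 in residual medium, 52.6, 50.7 and 58.7 with PANC-1 vesicles and 68.6, 79.0 and 76.4 with PPCL-68 vesicles. Here the untreated group was lowest and the PPCL-68 group highest, and residual medium and PANC-1 vesicles overlapped. JUN rose by 0.40 in residual medium (SE 0.07, adjusted p = 0.00091) and by a further 0.42 with PPCL-68 vesicles over residual medium (SE 0.07, adjusted p = 6.0e-05), which also exceeded PANC-1 vesicles by 0.46 (SE 0.07, adjusted p = 5.8e-05). The lines differed in the response to PANC-1 vesicles over residual medium (-0.66, SE 0.21, adjusted p = 0.028) and to residual medium itself (0.75, SE 0.21, adjusted p = 0.0084). The first of these was lost in 6 of 32 alternatives, with adjusted p up to 0.0752.

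JUNB (chr19:12902310-12904124, plus strand), a JUN relative that often restrains c-Jun, had 65.0, 69.2 and 64.7 FPKM in untreated HPDE, 80.4, 66.3 and 74.9 in residual medium, 85.7, 87.7 and 93.4 with PANC-1 vesicles and 82.3, 94.7 and 90.0 with PPCL-68 vesicles. Both vesicle groups lay above both controls. Each exceeded residual medium by 0.27 (SE 0.07; adjusted p = 0.0029 for PANC-1 and 0.0026 for PPCL-68). In HPNE its libraries read 52.0, 51.6 and 30.2 untreated, 30.3, 31.7 and 54.7 in residual medium, 65.4, 43.7 and 50.8 with PANC-1 vesicles and 71.2, 48.9 and 53.5 with PPCL-68 vesicles. Groups overlapped, with differences of 0.48 (adjusted p = 0.20) and 0.60 (adjusted p = 0.096) from residual medium. Without the libraries apart these were 0.59 and 0.70 and passed (adjusted p = 6.7e-05 and 1.4e-05). HOOK2 overlaps JUNB on the opposite strand, at 3.46 to 9.51 FPKM in HPNE and 18.5 to 23.3 in HPDE.

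JUND (chr19:18390563-18392432, minus strand), which slows growth in many cells, differed between the lines in the response to residual medium. In HPNE it read 126, 133 and 81.9 FPKM untreated, 58.8, 46.2 and 89.1 in residual medium, 123, 61.6 and 61.0 with PANC-1 vesicles and 89.1, 55.1 and 61.2 with PPCL-68 vesicles. The close pair of untreated libraries lay above the close pairs of the 3 treated groups, and the libraries apart crossed over between the groups. The HPNE difference for residual medium was -0.82 and did not pass (SE 0.32, adjusted p = 0.055). It was -1.30 without the libraries apart (adjusted p = 8.9e-07). HPDE read 32.9, 35.1 and 30.7 untreated, 62.1, 40.7 and 45.4 in residual medium, 45.8, 54.1 and 53.9 with PANC-1 vesicles and 51.4, 57.5 and 61.3 with PPCL-68 vesicles. All treated libraries exceeded all untreated ones and the treated groups overlapped. The rise in residual medium was 0.55 (SE 0.12, adjusted p = 0.0056), and the difference between lines was 1.38 (SE 0.37, adjusted p = 0.0070) with all libraries and 1.85 without those apart. Vesicles against residual medium gave no call for JUND in either line.

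The JUN family was made up differently in the 2 lines. JUND took 45.3% ± 1.04 of its summed FPKM in untreated HPNE and 23.3% ± 1.17 in untreated HPDE (SD, n = 3), where JUNB took 47.0% ± 0.556. With PPCL-68 vesicles JUND held 32.8% ± 0.845 in HPNE, and the JUNB share was 28.0% ± 1.01 beside 17.7% ± 1.02 untreated. The 3 untreated HPNE libraries held JUND shares of 44.6% to 46.5%, while those in residual medium ran from 30.8% to 41.5%.

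EGR1 (chr5:137801179-137805004, plus strand) fell with vesicles in HPDE, while its replicates in HPNE disagreed. HPDE libraries had 55.2, 65.4 and 64.2 FPKM untreated, 50.2, 58.8 and 60.2 in residual medium, 53.4, 51.3 and 45.4 with PANC-1 vesicles and 40.6, 41.0 and 40.2 with PPCL-68 vesicles. The PPCL-68 group was the lowest and overlapped no other. It was -0.46 against residual medium (SE 0.08, adjusted p = 9.6e-05), -0.59 against untreated cells (SE 0.08, adjusted p = 9.7e-06) and -0.29 against PANC-1 vesicles (SE 0.08, adjusted p = 0.0061). PANC-1 vesicles were -0.29 against untreated cells (adjusted p = 0.0042) and -0.17 against residual medium, which did not pass (adjusted p = 0.068). HPNE libraries had 58.5, 60.2 and 20.5 FPKM untreated, 32.9, 33.3 and 103 in residual medium, 173, 46.2 and 48.0 with PANC-1 vesicles and 104, 29.5 and 31.9 with PPCL-68 vesicles. Within 1 group the highest library was up to 3.74 times the lowest, beside a 1.92-fold range of the group means. With all libraries residual medium against no treatment gave 0.21 (SE 0.67, adjusted p = 0.81), and without the libraries apart -0.82 (SE 0.05, adjusted p = 2.7e-07). PANC-1 and PPCL-68 vesicles against untreated cells likewise turned from 0.79 and 0.14 to -0.33 and -0.93, so the direction of EGR1 against untreated HPNE rests on which libraries are kept. Against residual medium, PANC-1 vesicles gave 0.58 with all libraries (adjusted p = 0.54) and 0.49 without those apart (adjusted p = 2.4e-05), and PPCL-68 vesicles gave -0.07 (adjusted p = 0.95) and -0.11 (adjusted p = 0.093).

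IER3 (IEX-1; chr6:30710976-30712331, minus strand) had the highest level of the 10 in every group but untreated HPNE, where JUND and JUN were above it. HPNE libraries read 70.6, 69.6 and 78.5 FPKM untreated, 322, 323 and 249 in residual medium, 500.1, 441 and 413 with PANC-1 vesicles and 440.0, 320.1 and 349 with PPCL-68 vesicles. The untreated libraries were far below all others, and PANC-1 libraries were above all those in residual medium. The mean in residual medium was 4.09 times the untreated one, a log2 difference of 2.01 (SE 0.14, adjusted p = 8.7e-06). PANC-1 vesicles added 0.60 over residual medium (SE 0.14, adjusted p = 0.013), or 0.40 without the libraries apart. PPCL-68 vesicles gave 0.31, which did not pass (adjusted p = 0.11), and 0.05 without those libraries. HPDE libraries read 349.6, 352 and 351 untreated, 499.8, 422 and 441 in residual medium, 662, 790.2 and 701 with PANC-1 vesicles and 645, 639.9 and 608 with PPCL-68 vesicles, 4 groups with no overlap. Residual medium raised IER3 by 0.37 (SE 0.07, adjusted p = 0.0023), and over it PANC-1 vesicles by 0.66 (SE 0.07, adjusted p = 1.4e-06) and PPCL-68 vesicles by 0.48 (SE 0.07, adjusted p = 2.5e-05). The vesicle sources differed by -0.18 (PPCL-68 minus PANC-1, adjusted p = 0.040), a call that 12 of 19 alternatives lost. The step from untreated cells to residual medium was smaller in HPDE by -1.64 (SE 0.16, adjusted p = 6.7e-07), while the PANC-1 step over residual medium did not differ detectably between lines (0.06, SE 0.16, adjusted p = 0.84). The latter difference was 0.26 without the libraries apart and then passed (adjusted p = 0.044). For the PPCL-68 step it was 0.17 (adjusted p = 0.48), or 0.43 without those libraries (adjusted p = 0.0020). Sample quality weights called both.

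MYC (chr8:128747680-128753674, plus strand) was the one member called higher in all 4 comparisons of vesicles with residual medium. In HPNE it read 34.6, 35.8 and 42.9 FPKM untreated, 47.2, 46.0 and 50.0 in residual medium, 71.8, 67.5 and 73.2 with PANC-1 vesicles and 85.3, 68.8 and 65.8 with PPCL-68 vesicles. Both vesicle groups stood above both controls with no overlap, and untreated libraries were lowest. Over residual medium MYC rose by 0.56 with PANC-1 vesicles (SE 0.11, adjusted p = 0.0056) and by 0.60 with PPCL-68 vesicles (SE 0.11, adjusted p = 0.0019), and by 0.58 and 0.52 without the libraries apart. Both calls held in all 20 alternatives run. HPDE libraries read 150.3, 152 and 151 untreated, 178, 166 and 161 in residual medium, 262, 256 and 270.2 with PANC-1 vesicles and 187, 177 and 191 with PPCL-68 vesicles. PANC-1 libraries were far above the rest, and the PPCL-68 and residual medium ranges overlapped. PANC-1 vesicles exceeded residual medium by 0.64 (SE 0.05, adjusted p = 4.0e-08) and PPCL-68 vesicles by 0.14 (SE 0.05, adjusted p = 0.018), which was lost without PPCL-68 EV replicate 3 (adjusted p = 0.071) or residual medium replicate 2 or 3 (0.0562 and 0.0966). The sources differed by -0.50 in HPDE (PPCL-68 minus PANC-1, SE 0.05, adjusted p = 9.9e-07) and by 0.04 in HPNE (SE 0.11, adjusted p = 0.87). The PPCL-68 response over residual medium was smaller in HPDE than in HPNE by -0.46 (SE 0.12, adjusted p = 0.0077), and the PANC-1 response was not detectably different (0.08, SE 0.12, adjusted p = 0.66). Without the libraries apart these differences were -0.38 (adjusted p = 0.00022) and 0.06 (adjusted p = 0.53), and sample quality weights called both. The rises in residual medium over no treatment were 0.33 in HPNE (adjusted p = 0.030) and 0.15 in HPDE (adjusted p = 0.0335), and they were lost in 6 of 20 and 7 of 19 alternatives.

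The vesicle sources were also compared with each other. In HPDE 6 of 10 members differed, with 50.1% of all genes called: FOSB, FOSL1 and JUN were higher with PPCL-68 vesicles and EGR1, IER3 and MYC higher with PANC-1 vesicles. In HPNE limma called none of the 9 tested (5.47% of all genes called). JUN alone passed at an unadjusted p under 0.05, and voom on recovered reads called 0. Without the libraries apart 5 of 8 were called, with 36.5% of all genes called: FOSL1 and FOSL2 higher and EGR1, IER3 and JUN lower with PPCL-68 vesicles. The difference of the sources was not tested between the lines.

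Untreated HPDE and HPNE differed in 9 of the 10 genes, beside 83.8% of all genes tested. HPDE had more MYC (1.98, SE 0.08, adjusted p = 1.2e-14), IER3 (2.25, SE 0.12, adjusted p = 2.6e-13), FOSL1 (1.97), FOS (1.53), FOSB (0.78) and JUNB (0.60), and less JUND (-1.73, SE 0.26, adjusted p = 3.5e-06), JUN (-1.10) and FOSL2 (-0.40). EGR1 did not pass (0.55, adjusted p = 0.32). FOSB, at a mean of 0.291 FPKM in untreated HPNE, met the filter of this fit only through HPDE, where it is high. Its call is therefore no support for a difference, and with only the untreated libraries compared it was not tested. The median of all genes was itself 0.38 higher in HPDE. Median-of-ratios size factors moved that median by -0.35 and took JUNB to 0.20 (adjusted p = 0.41), and JUNB was also lost without HPNE untreated replicate 3 (adjusted p = 0.107). The FOSL2 call was lost in 4 of 32 alternatives: with no filter on low values (adjusted p = 0.062), without HPDE untreated replicate 1 (0.064) or 2 (0.072) and without HPNE untreated replicate 3 (0.133). The tests of a difference between lines in a response called 2 members for PANC-1 vesicles over residual medium, with 21.2% of all genes called, 1 for PPCL-68 vesicles (25.7%) and 5 for residual medium over no treatment (38.1%).

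Over the 8 groups, neighbours in the order of mean levels mostly overlapped. The same count was not made over all genes, so it describes the values and is not a result about the members. MYC had 2 of 7 neighbouring pairs overlapping, FOS and IER3 3 each and FOSL1 4. FOSB, FOSL2 and JUN had 5, JUNB and JUND 6, and EGR1 all 7, from 40.6 FPKM in HPDE with PPCL-68 vesicles to 89.0 in HPNE with PANC-1 vesicles.

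Other genes of these pathways were counted from lists written from general knowledge, but with earlier results of these data known. The list counts are therefore descriptions and not independent support. The counts against residual medium stand beside shares of all genes called, in both directions, of 24.2% (PANC-1) and 39.9% (PPCL-68) in HPNE and of 63.3% and 67.7% in HPDE. Without the HPNE libraries apart the HPNE shares were 59.1% and 65.7%. Genes named from the lists were picked for large differences of 1 sign in at least 3 of these same 4 comparisons. Their rises and falls there follow in part from that choice. Among partner factors of JUN and FOS proteins (ATF, BATF, MAF and JDP2 genes), relative to residual medium, 5 of 10 tested were higher with PANC-1 and 6 with PPCL-68 vesicles in HPNE, none lower. In HPDE 7 of 9 were higher with PANC-1 vesicles, none lower, and 5 higher and 1 lower with PPCL-68. ATF3, a stress-induced repressor, went from 3.59 ± 1.44 FPKM in residual medium to 13.0 ± 2.59 and 21.2 ± 0.647 in HPNE and from 18.5 ± 2.90 to 43.4 ± 2.73 and 42.9 ± 1.17 in HPDE (PANC-1 and PPCL-68, SD, n = 3). Its log2 differences were 1.63, 2.31, 1.20 and 1.18 in that order, with adjusted p of 0.00046, 3.1e-05, 2.2e-07 and 1.6e-07. JDP2, a repressor that binds JUN proteins, and MAFG, a small MAF protein, rose in all 4 comparisons, by 1.03 to 1.47 and by 0.40 to 1.42. The list's median was 0.35 and 0.57 in the HPNE comparisons, beside 0.47 and 0.49 in those of HPDE. Without the HPNE libraries apart 7 and 6 of 10 were higher in HPNE and none lower.

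Of the other immediate-early genes, 8 of 23 tested were higher and 1 lower with PANC-1 vesicles than with residual medium in HPNE (24.2% of all genes called), and 9 higher and 1 lower with PPCL-68 vesicles (39.9%). In HPDE 13 of 21 were higher and 4 lower (63.3%), and 15 higher and 4 lower (67.7%). Without the HPNE libraries apart 12 and 13 of 22 were higher in HPNE and 3 lower in each. EGR2, a zinc-finger relative of EGR1, stood at 0.641 ± 0.587 FPKM in residual medium and at 8.85 ± 5.05 and 5.30 ± 0.873 with PANC-1 and PPCL-68 vesicles in HPNE (SD, n = 3), a rise of 2.53 (adjusted p = 0.00076) and 1.99 (adjusted p = 0.0012). Untreated HPNE had 4.27 ± 1.35 FPKM of EGR2, and residual medium was -1.71 against it (adjusted p = 0.0028). In HPDE EGR2 differed from residual medium by 0.37 with PANC-1 vesicles (adjusted p = 0.0019) and by 0.16 with PPCL-68 vesicles, which did not pass (adjusted p = 0.13). KLF4, a growth-arrest factor, followed the same course in HPNE: 16.5 ± 4.62 untreated, 3.30 ± 2.22 in residual medium, 19.8 ± 4.65 and 16.2 ± 0.705 with vesicles. In HPDE KLF4 rose by 0.87 and 0.60 over residual medium. PHLDA1 was higher in all 4 comparisons, by 0.80 to 1.85, and IER5 lower in all 4, by -0.46 to -0.30. Among serum response factor, its ELK and MKL cofactors and the NAB corepressors of EGR1, 1 of 8 was higher with PANC-1 and 2 with PPCL-68 vesicles in HPNE, none lower, and 3 higher and 1 lower, and 2 higher and 3 lower, without the libraries apart. In HPDE 2 were higher and 1 lower, and 5 higher and 3 lower, in the same order. ELK4 rose by 0.45 and 0.62 in HPDE and by 0.49 with PPCL-68 vesicles in HPNE, and ELK1 was called higher in 3 of the 4 comparisons.

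Around MYC, 1 of 9 tested genes of its dimerisation network was higher and 3 lower with PANC-1 vesicles than with residual medium in HPNE, and 3 higher and 2 lower with PPCL-68 vesicles, or 3 higher and 3 lower, and 5 higher and 3 lower, without the libraries apart. In HPDE 6 of 10 were higher and 3 lower with each. MXD1, which competes with MYC for MAX, rose in all 4 comparisons. It went from 1.35 ± 0.334 FPKM to 5.06 ± 0.583 and 6.39 ± 0.539 in HPNE and from 5.71 ± 0.394 to 17.7 ± 0.933 and 18.2 ± 0.867 in HPDE (PANC-1 and PPCL-68, SD, n = 3), log2 differences of 1.37, 1.66, 1.48 and 1.51. MXD3 and MLX fell in all 4, by -1.02 to -0.47 and by -0.66 to -0.37, and MNT was called higher in 3. The shares of all genes called are again 24.2% and 39.9% in HPNE and 63.3% and 67.7% in HPDE. Growth genes that MYC is known to bind did not move as 1 block: of 20 tested, none was higher and 3 lower with PANC-1 vesicles in HPNE, 5 higher and 4 lower with PPCL-68 vesicles there, 10 higher and 5 lower with PANC-1 vesicles in HPDE, and 3 higher and 12 lower with PPCL-68 vesicles in HPDE. Without the libraries apart the HPNE counts were 4 higher and 12 lower, and 6 higher and 10 lower. ODC1, the first enzyme of polyamine synthesis, reached 231 ± 6.54 and 422 ± 26.6 FPKM with PANC-1 and PPCL-68 vesicles in HPDE beside 113 ± 11.3 in residual medium (SD, n = 3). In HPNE its differences were 0.33 with PANC-1 vesicles, which did not pass (adjusted p = 0.31), and 0.99 with PPCL-68 vesicles (adjusted p = 0.0077). LDHA, a glycolytic enzyme, fell in all 4 comparisons, in HPNE from 788 ± 11.1 FPKM in residual medium to 299 ± 61.6 and 264 ± 73.8. Untreated HPNE had 321 ± 27.5 FPKM of LDHA. FBL also fell in all 4 comparisons with residual medium, by -0.56 to -0.16, and BOP1 was called lower in 3 of them. All 20 were called higher in untreated HPDE than in untreated HPNE. That comparison called 83.8% of all genes, with 6935 of 12377 higher in HPDE, and the median of all genes was itself 0.38 higher.

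Of the listed AP-1 target genes, residual medium against no treatment raised 10 of 13 tested in HPNE, where 43.9% of all genes were called, with a list median of 1.66. It raised 13 of 15 in HPDE, where 20.0% of all genes were called, with a median of 0.67, and lowered none in either line. The medians of all genes were -0.05 and -0.01. Against residual medium, PANC-1 vesicles raised 2 and lowered 1 in HPNE and raised 8 and lowered 3 in HPDE, and PPCL-68 vesicles raised 1 and lowered 1 in HPNE and raised 8 and lowered 4 in HPDE. Without the HPNE libraries apart all 13 were higher in residual medium than untreated (71.7% of all genes called), and vesicles against residual medium gave 5 higher and 7 lower (PANC-1) and 3 higher and 5 lower (PPCL-68). HBEGF, an EGF receptor ligand, rose by 1.49 in residual medium in HPNE (adjusted p = 0.0015) and by a further 0.94 with PANC-1 vesicles (adjusted p = 0.023). With PPCL-68 vesicles it was -0.69 there and did not pass (adjusted p = 0.052). In HPDE it stood at 32.4 ± 1.55 FPKM untreated, 60.9 ± 1.69 in residual medium, 157 ± 7.59 with PANC-1 and 103 ± 0.985 with PPCL-68 vesicles (SD, n = 3).

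The gene most like each member over the 24 libraries was found by Pearson r of log2(FPKM + 1) centred on the mean of each line. It was sought among 9769 protein-coding genes other than the members, so no member could be named for another. The points share libraries, treatments and the HPNE libraries apart, and r is a description. IER3 was most like ICAM1 (r = 0.976), which had 1.08 ± 0.153 FPKM in untreated HPNE and 9.93 ± 0.734 in residual medium (SD, n = 3). FOSL1 was most like COTL1 (0.960, but 0.558 within the 12 HPDE libraries), MYC most like IL24 (0.948), FOSL2 most like KLF6 (0.947), JUND most like IL17RC (0.893) and JUN most like CSF1 (0.881). JUNB was most like PNRC1 (0.874), EGR1 most like TNFAIP8 (0.850, but 0.280 within HPDE) and FOS most like LAYN (0.845). Likeness was not computed for FOSB.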

How the data were processed

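RNA was measured in 24 libraries from HPNE and HPDE cells, 3 in each of 8 groups, with groups and replicate numbers taken from the sample titles. The deposited values are FPKM, computed by the authors per gene and library from the gene length given beside them. The submitters' processing notes name CASAVA, STAR, HTSeq, DESeq2 and the build hg19, without versions or roles, and the annotation release is not given in the sources used here. The library kit kept no strand, per the labels' protocols. FPKM divides by the library total, so a few abundant genes can shift all others: the top 10 genes took 14.5% to 18.3% of reads in HPNE and 4.33% to 5.21% in HPDE. Counting error is small for most members at these depths and larger for FOS and FOSB, whose reads are given.

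The main test was limma 3.58.1 in R 4.3.3 (lmFit, eBayes with trend, two-sided) on log2(FPKM + 1). Genes averaging 1 FPKM or more entered, in 1 fit of the 12 libraries per line (8 residual degrees of freedom) and 1 fit of all 24 (16) for comparisons between lines. P-values were Benjamini-Hochberg adjusted over all genes tested, with a threshold of 0.05. Fold changes on this scale understate those of low genes. Whole reads were recovered from FPKM and gene length (100% of values whole within 0.01 reads) for limma voom as an alternative. The further settings tried were median-of-ratios size factors, a smaller pseudocount (0.1), dropping the filter on low values, only the libraries compared, a replicate block, sample quality weights and leaving out each replicate. Leaving out the 4 HPNE libraries apart was chosen after seeing the data. The scripts were tested on simulated data.

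Same-numbered replicates are not said to share a culture or day. Correlations of their deviations from the group means averaged 0.027 in HPNE and -0.041 in HPDE, and exceeded 0.1 in every pair only between the PANC-1 and PPCL-68 vesicle groups of HPNE (0.292 to 0.565), where the replicate block likewise called 0 members.

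Named genes were all 10 members, then from each list up to 3 genes with the largest positive and up to 3 with the largest negative mean difference over the 4 vesicle comparisons with residual medium, among those called with 1 sign in at least 3. Members and lists were chosen with earlier results of these data known. ATF7 matched 2 rows. Promoters and motif shares used RefSeq sequences (GRCh38.p14), while gene coordinates are those deposited. Figures were drawn with matplotlib 3.10.9.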

Additional observations from a re-analysis of the deposited data

Results flagged for a closer look

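Differences between the lines in the response to a treatment passed limma's test of the contrast itself (16 residual degrees of freedom, adjusted over 12377 genes) for 8 values, all as HPDE minus HPNE on the log2 scale. For residual medium against no treatment they were -1.64 for IER3 (adjusted p = 6.7e-07), -1.32 for FOSL1 (adjusted p = 0.011), -0.72 for FOSL2 (adjusted p = 0.018), 0.75 for JUN (adjusted p = 0.0084) and 1.38 for JUND (adjusted p = 0.0070). IER3 and FOSL1 started 2.25 and 1.97 higher in untreated HPDE. For PANC-1 vesicles against residual medium they were 0.90 for FOSL2 (adjusted p = 0.0085) and -0.66 for JUN (adjusted p = 0.028), the JUN value being lost in 6 of 32 alternatives. For PPCL-68 vesicles against residual medium the value was -0.46 for MYC (adjusted p = 0.0077). These comparisons share the residual medium libraries. The members called, 5, 2 and 1 of 10 in that order, stand beside 38.1%, 21.2% and 25.7% of all genes called. The counts are therefore not a result about the members.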

How the results depend on the processing

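Of 1075 values of single members under the 7 settings that change the processing, 1027 held, 33 newly passed, 12 no longer passed and 3 reversed. A value held if it kept its side of the threshold and did not change sign while called in either setting. With 1 library left out the same held for 2266 of 2328, with 18 newly passing and 44 lost. Without the 4 HPNE libraries apart, 53 of 88 held, 31 newly passed and 4 reversed. The values counted as held include 74 that changed sign but were called in neither setting. All reversals of a called value were of EGR1. Quality weights gave -0.71 (adjusted p = 0.026) for residual medium against untreated HPNE, -0.77 (adjusted p = 0.023) for PPCL-68 vesicles against untreated, and 0.64 (adjusted p = 0.039) for the difference between lines in residual medium. Without the 4 libraries EGR1 gave -0.82, -0.33 and -0.93 for residual medium, PANC-1 and PPCL-68 vesicles against untreated HPNE and 0.70 for the difference between lines. Fewer libraries and a smaller spread follow from that choice's construction.

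In HPNE, members called for PANC-1 vesicles against residual medium went from 3 to 5 with quality weights and 7 without the 4 libraries, and ranged from 2 to 4 with 1 library left out. For PPCL-68 vesicles against residual medium they went from 1 to 2 with no filter and 2 with only the libraries compared, through FOSB, to 3 with weights and 4 without the 4, and ranged from 1 to 2. With only the libraries compared, FOSB reached a mean of 1 FPKM through the PPCL-68 group alone (mean 1.73, beside 0.675 in residual medium). That added call is therefore no support for a rise. For residual medium against untreated they went from 4 to 8 with weights and 8 without the 4 (range 3 to 6). For PANC-1 vesicles against untreated they went from 4 to 2 with no filter (range 2 to 4), and for PPCL-68 vesicles against untreated from 4 to 7 with weights and 7 without the 4 (range 4 to 5). Between the vesicles they went from 0 to 1 with no filter, 3 with weights and 5 without the 4 (range 0 to 1). HPDE counts moved by less than 1.5 times in those 7 settings, with ranges of 6 to 8, 7 to 9, 5 to 6, 8 to 8, 10 to 10 and 5 to 6 with 1 library left out, for PANC-1 and PPCL-68 vesicles against residual medium, residual medium, PANC-1 and PPCL-68 vesicles against untreated, and between the vesicles. Untreated lines ranged from 7 to 9. Differences between lines went from 2 to 1 with no filter, 7 with weights and 7 without the 4 for PANC-1 vesicles (range 1 to 2), from 1 to 5 and 7 for PPCL-68 vesicles (range 1 to 1) and from 5 to 9 and 8 for residual medium (range 5 to 5). Without the 4, 46.7% (PANC-1), 45.8% (PPCL-68) and 61.9% (residual medium) of all genes were called for these differences between lines. The HPNE shares without the 4 are given with the results above. Shares under weights are not given here, and none of these counts is a result about the members. Apart from FOSB, the cause of these shifts was not tested.

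With the replicate block, 151 member values held and 3 changed. JUND in HPNE residual medium against untreated newly passed (adjusted p = 0.049), and in HPDE MYC in residual medium against untreated (adjusted p = 0.054) and IER3 between the vesicles (adjusted p = 0.061) no longer did. Depth limits FOS and FOSB in HPNE, at 39 to 151 and 20 to 305 reads per library.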
